A study of Drosophila melanogaster with 6 samples.

Results

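The subject is the nuclear serine and leucine transfer RNA (tRNA), recovered from ovarian somatic sheath (OSS) cells of the fruit fly with Strep-tagged Asterix and sequenced by eCLIP. Members were chosen by name: every nuclear tRNA gene copy that the tables list for serine (Ser) or leucine (Leu), leaving out mitochondrial tRNA. This gave 42 gene copies, 20 of Ser and 22 of Leu, among 291 nuclear tRNA gene copies and 123041 features in all. Copies were also summed by anticodon, which gave 9 sums, 4 of Ser and 5 of Leu, among 45 nuclear tRNA anticodons.

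Ser and Leu tRNA are the tRNAs of the cytosol that carry a long variable arm, an extra stem between the anticodon stem and the T stem, and selenocysteine (SeC) tRNA shares this feature. Seryl-tRNA synthetase, which charges both Ser and SeC tRNA, recognises its substrates by the long arm and not by the anticodon. Serine codons fall in separate boxes: the AGA, CGA and TGA anticodons (written as in the gene, with T for U) read the UCN codons, and GCT reads AGC and AGU. Among Leu tRNA, AAG, CAG and TAG read the CUN codons, and CAA and TAA read UUG and UUA. Asterix, called Gtsf1 in mammals, is a small zinc-finger protein that acts with Piwi in the silencing of transposons in the nucleus. In eCLIP, ultraviolet light joins RNA to bound protein, the RNA is trimmed with RNase, the protein is pulled down, and the RNA that stays with it is sequenced beside an input taken before the pull-down.

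The 6 libraries formed 4 groups: crosslinked IP (2 libraries), crosslinked input (2), non-crosslinked IP (1) and non-crosslinked input (1). All cells were OSS cells, a cultured line of ovarian somatic cells, transiently transfected with Asterix-TEV-Strep in the plasmid pAWG, an actin-promoter vector, and were taken 72 hours later. The crosslinked cells received light of 254 nm at 400 mJ and the non-crosslinked cells none. The non-crosslinked IP therefore also came from cells with the tagged protein, and no IP from cells without the tag was analysed here. The labels do not say whether the numbered libraries came from separate cultures, so p-values measure only the spread between these libraries, which may be technical.

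The IP libraries held 2335842 to 3171331 reads and the input libraries 12664308 to 13967160. Reads of ribosomal RNA made up 60.1% to 69.5% of annotated reads in the IP libraries and 85.6% to 87.0% in the inputs. The 7 exon-counted markers of ovarian somatic cells, among them the transcription factor gene tj, summed to 211 to 275 CPM in the inputs, where CPM are counts scaled by the library's annotated reads, with all 7 above 3 reads. An eighth somatic marker, flam, is listed as a long noncoding RNA and was not in this sum. It had 2 and 0 reads in the crosslinked inputs and 4 in the non-crosslinked input. The 7 germline markers summed to 5.69 to 8.82 CPM in the inputs, and 3 of the 7 were above 3 reads. Among them nos had 44 and 46 reads in the crosslinked inputs and krimp 33 and 60, while the germline gene bam was at 0. Reads on nuclear tRNA numbered 49863 and 40869 in crosslinked IP, 23649 and 24474 in crosslinked input, 102189 in non-crosslinked IP and 65149 in non-crosslinked input. Most of those were Asp and Glu tRNA. Asp-GTC, the anticodon outside Ser and Leu with the most reads, alone held 35.1% and 28.5% of tRNA reads in crosslinked IP, 56.9% and 55.4% in crosslinked input, 36.1% in non-crosslinked IP and 72.9% in non-crosslinked input.

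Ser tRNA separated from Leu tRNA and from the other tRNA by crosslinking. Both classes were more abundant in crosslinked IP than in crosslinked input, as all nuclear tRNA anticodons were. Between the IP libraries, however, each of the 4 Ser anticodons was higher with crosslinking, by 5.54-fold to 8.29-fold, whereas no Leu anticodon was. There 5.14% of all entries were called higher, and the non-crosslinked IP was a single library. Part of the difference between Ser and Leu tRNA was already present in the inputs, where Ser reads were also more frequent relative to Leu reads after crosslinking. Ser-AGA, which had the 8.29-fold, was itself 4.26-fold higher in crosslinked than in non-crosslinked input.

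The first measure was the share of a library's tRNA reads, which does not depend on how libraries are scaled. Ser and Leu together held 11.3% and 16.6% of tRNA reads in crosslinked IP, 2.91% and 3.53% in crosslinked input, 2.52% in non-crosslinked IP and 1.23% in non-crosslinked input. The crosslinked IP libraries were above all others and did not overlap with the crosslinked inputs. Their mean was 14.0% ± 3.75 against 3.22% ± 0.436 (SD, n = 2 each), a ratio of 4.34, and the exact permutation test gave p = 0.333 (two-sided), the smallest p that 2 against 2 libraries allow. The ratio was 2.77 when Asp-GTC, whose own share was lower in crosslinked IP than in crosslinked input, was left out. Asp and Glu tRNA together held 61.2% and 52.1% of tRNA reads in crosslinked IP and 86.1% and 84.0% in crosslinked input. A lower share of these leaves a larger share to all other tRNA. The ratio is therefore not a gain of Ser and Leu tRNA alone, and it was not computed without both Asp and Glu tRNA.

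Ser tRNA alone held 7.58% and 10.9% of tRNA reads in crosslinked IP, 1.37% and 1.56% in crosslinked input, 0.496% in non-crosslinked IP (95% Wilson interval 0.455% to 0.541%) and 0.252% in non-crosslinked input (0.216% to 0.293%). Leu tRNA held 3.74% and 5.72% in crosslinked IP, 1.54% and 1.97% in crosslinked input, 2.02% in non-crosslinked IP (1.94% to 2.11%) and 0.981% in non-crosslinked input (0.908% to 1.06%). The intervals cover counting error only. Ser tRNA thus led Leu tRNA in the crosslinked IP libraries, lay somewhat below it in the crosslinked inputs, and was the minor class in both non-crosslinked libraries. Expressed as reads of Ser per read of Leu, the values were 2.03 and 1.91 in crosslinked IP, 0.894 and 0.789 in crosslinked input, 0.245 in non-crosslinked IP and 0.257 in non-crosslinked input. The ratio was nearly the same in the IP and the input without crosslinking, and was higher in IP than in input with it.

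**Figure D1:**
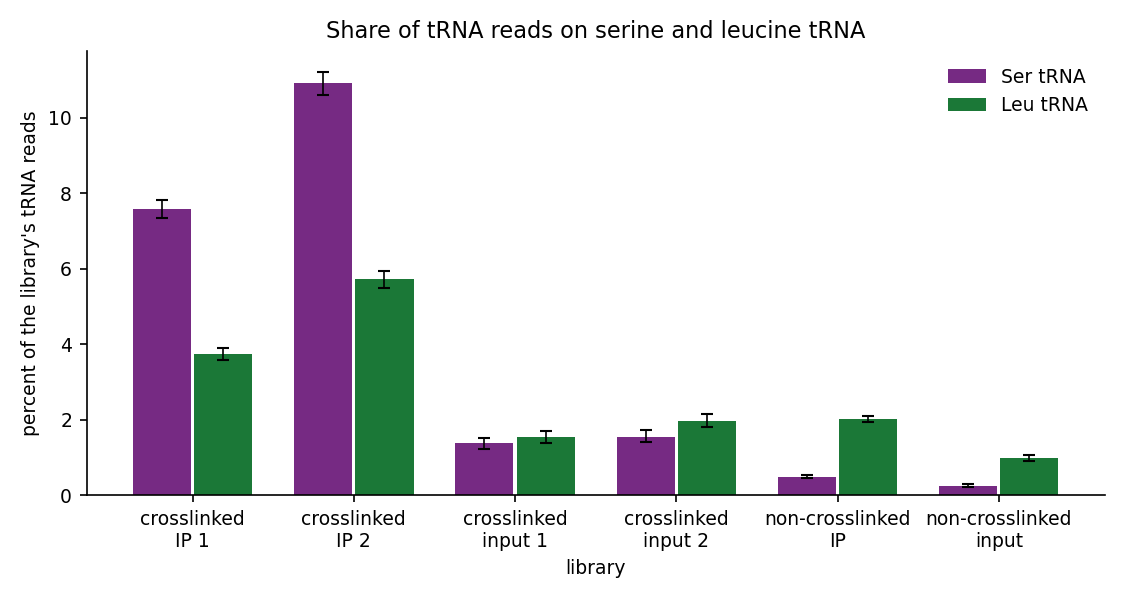
Percent of each library's nuclear tRNA reads on Ser tRNA (purple) and Leu tRNA (green) in the 6 libraries; error bars are 95% Wilson intervals and cover counting error only. Ser tRNA held 7.58% and 10.9% in the crosslinked IP libraries and 1.56% or less in each of the others.

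The level of each Ser anticodon is given next as CPM summed over its gene copies. Ser-TGA, the most abundant, had 809 and 949.8 CPM in crosslinked IP, 13.8 and 11.8 CPM in crosslinked input, 137 CPM in non-crosslinked IP and 7.36 CPM in non-crosslinked input. Ser-AGA had 535 and 351 CPM in crosslinked IP, 5.70 and 8.64 CPM in crosslinked input, 58.3 CPM in non-crosslinked IP and 1.49 CPM in non-crosslinked input. Both read UCN codons, and in both the crosslinked IP libraries lay far above every other library. Ser-CGA, the third UCN reader, had 216 and 122 CPM in crosslinked IP, 2.37 and 3.36 CPM in crosslinked input, 30.9 CPM in non-crosslinked IP and 1.39 CPM in non-crosslinked input. Ser-GCT, of the separate serine box, had 154 and 103 CPM in crosslinked IP, 4.37 and 4.08 CPM in crosslinked input, 25.3 CPM in non-crosslinked IP and 2.92 CPM in non-crosslinked input. The order of the libraries was the same for all 4 Ser anticodons: crosslinked IP, non-crosslinked IP, crosslinked input, non-crosslinked input.

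The Leu anticodons had another order. Leu-CAG, a CUN reader and the most abundant Leu tRNA of the IP libraries, had 392 and 405 CPM in crosslinked IP, 7.83 and 11.2 CPM in crosslinked input, 474 CPM in non-crosslinked IP and 12.03 CPM in non-crosslinked input. Leu-CAA, whose genes hold an intron, had 257 and 248 CPM in crosslinked IP, 10.4 and 12.7 CPM in crosslinked input, 293 CPM in non-crosslinked IP and 10.8 CPM in non-crosslinked input. For both, the non-crosslinked IP was above the crosslinked IP libraries. Leu-AAG had 136 and 77.4 CPM in crosslinked IP, 5.72 and 6.18 CPM in crosslinked input, 134 CPM in non-crosslinked IP and 20.2 CPM in non-crosslinked input, which was the highest input value of any Ser or Leu anticodon. The remaining Leu anticodons were scarcer. Leu-TAG had 40.5 and 43.5 CPM in crosslinked IP, 3.75 CPM in both crosslinked inputs, 82.2 CPM in non-crosslinked IP and 6.60 CPM in non-crosslinked input. Leu-TAA had 20.4 and 25.3 CPM in crosslinked IP, 1.69 and 1.46 CPM in crosslinked input, 41.6 CPM in non-crosslinked IP and 1.52 CPM in non-crosslinked input.

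Per kilobase of gene, Ser-TGA had the highest level of the Ser and Leu anticodons in the crosslinked IP libraries, with 9864 and 11583 CPM per kb. Leu-CAG was the highest of them in the non-crosslinked IP, with 5709 CPM per kb, where Ser-TGA had 1668. Leu-AAG was the highest of them in the non-crosslinked input, with 247 CPM per kb, where Ser-TGA had 89.8. In the crosslinked inputs Ser-TGA had 168 and 144 CPM per kb, and no order is given there, because the gene length of Leu-CAA counts an intron and its level per kb is understated against the other anticodons. Before division by length, Leu-CAA was above Ser-TGA in crosslinked input 2.

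**Figure D2:**
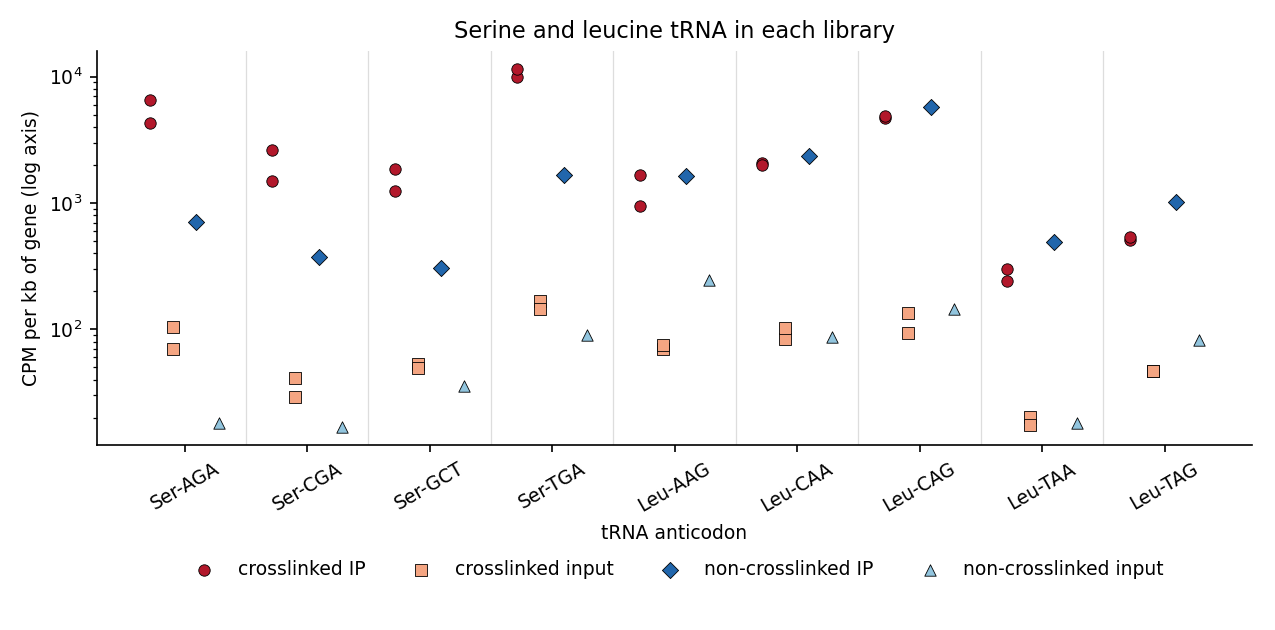
Level of each Ser and Leu anticodon, in CPM per kb of gene on a log axis, with 1 point per library and colour and marker for the group; the length of Leu-CAA includes its intron. For the Ser anticodons both crosslinked IP points lie above the non-crosslinked IP point, while for Leu-CAA, Leu-CAG, Leu-TAA and Leu-TAG the non-crosslinked IP point is the highest.

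The comparison of crosslinked IP with its own input asks which RNA the pull-down enriched. All 9 anticodons rose, Ser anticodons by 16.3-fold to 36.7-fold and Leu anticodons by 6.09-fold to 22.8-fold (edgeR's quasi-likelihood F test, two-sided, Benjamini-Hochberg adjusted p under 0.05). Of all 8978 summed entries tested, 31.3% were called higher, and of the other 36 tRNA anticodons 36 were. Median log2 fold changes were 5.03 for Ser, 3.27 for Leu, 3.96 for the other tRNA and -0.07 for all entries. Fold changes from the fit use TMM scaling and are smaller than ratios of the CPM values above.

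Ser-TGA had a log2 fold change of 5.20 (SE 0.29, adjusted p = 4.51e-10), Ser-AGA one of 5.07 (SE 0.29) and Ser-CGA one of 4.99 (SE 0.30). Ser-GCT, with 4.03 (SE 0.25), was the lowest of the Ser anticodons. Leu-CAG, with 4.51 (SE 0.25), was the highest Leu anticodon and lay above Ser-GCT. Leu-CAA had 3.57 (SE 0.22), Leu-AAG 3.27 (SE 0.26), Leu-TAA 2.98 (SE 0.26) and Leu-TAG 2.61 (SE 0.20, adjusted p = 1.61e-08). Among all 45 tRNA anticodons in order of this fold change, the Ser anticodons held ranks 11, 13, 14 and 21 and the Leu anticodons ranks 16 to 39. By this order, enrichment over input did not set Ser or Leu tRNA apart from the other tRNA.

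That comparison depends on what tRNA is measured against. With the tRNA reads outside Ser and Leu as library size, the median of all entries shifts to -2.24, 8.04% of entries are called higher, and 6 of the 9 anticodons are: the 4 Ser anticodons (log2 1.80 to 3.09), Leu-CAG (2.34) and Leu-CAA (1.40). Asp and Glu tRNA weigh heavily in that library size. With tRNA outside Ser, Leu, Asp and Glu as library size, a setting chosen after seeing the data, 4 were called higher, Ser-TGA, Ser-AGA, Ser-CGA and Leu-CAG. Under it Leu-TAG was called lower (-1.07), where 3.6% of entries were called higher and 86.7% lower. With Leu reads as library size, also chosen afterwards, Ser-TGA (1.42), Ser-AGA (1.28) and Ser-CGA (1.20) were higher, while Ser-GCT (0.24, adjusted p = 0.379 in edgeR's quasi-likelihood test) was not called. In that setting 3.51% of entries were called higher. Leu-CAG (0.73) was also called higher in it, and some other Leu anticodons were called lower. Relative to Leu tRNA as a class, the 3 UCN readers were enriched, and Ser-GCT was not shown to be. Leu reads are themselves that library size, so the calls of Leu-CAG and the other Leu anticodons describe only shares within Leu tRNA.

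The comparison of crosslinked IP with non-crosslinked IP asks what the pull-down gained from crosslinking. Its non-crosslinked side is a single library, which has no replicate check and was assumed in the fit to vary like the crosslinked groups. All 4 Ser anticodons were higher with crosslinking and none of the Leu anticodons was (0 also at an unadjusted p under 0.05 and by DESeq2), where 5.14% of 11820 entries were called higher. Among the other 36 tRNA anticodons 1 was called higher and 21 lower, and the medians were 2.70 for Ser, -0.21 for Leu, -1.08 for the other tRNA and 0.11 for all entries. Crosslinked IP over the single non-crosslinked IP was 9.18 and 6.02 in CPM for Ser-AGA, 5.91 and 6.95 for Ser-TGA, 6.98 and 3.96 for Ser-CGA and 6.08 and 4.08 for Ser-GCT.

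In the fit, Ser-AGA had a log2 fold change of 3.05 (SE 0.33, adjusted p = 3.38e-17), Ser-TGA 2.82 (SE 0.35), Ser-CGA 2.58 (SE 0.31) and Ser-GCT 2.47 (SE 0.31, adjusted p = 1.91e-13). These were ranks 1 to 4 of the 45 tRNA anticodons. The fifth, the threonine tRNA Thr-TGT, named after its value was seen, had 0.95 (SE 0.27). The 95% intervals of the Ser anticodons began at 1.87 or above and that of Thr-TGT ended at 1.47. All 4 Ser calls held in each of the 18 alternatives tried, with log2 fold changes of 1.90 to 4.58. They were called with Leu reads as library size, where they were 2.64 to 3.23 and 6.73% of entries were called higher, so that the gain of Ser tRNA with crosslinking is also a gain relative to Leu tRNA.

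**Figure D3:**
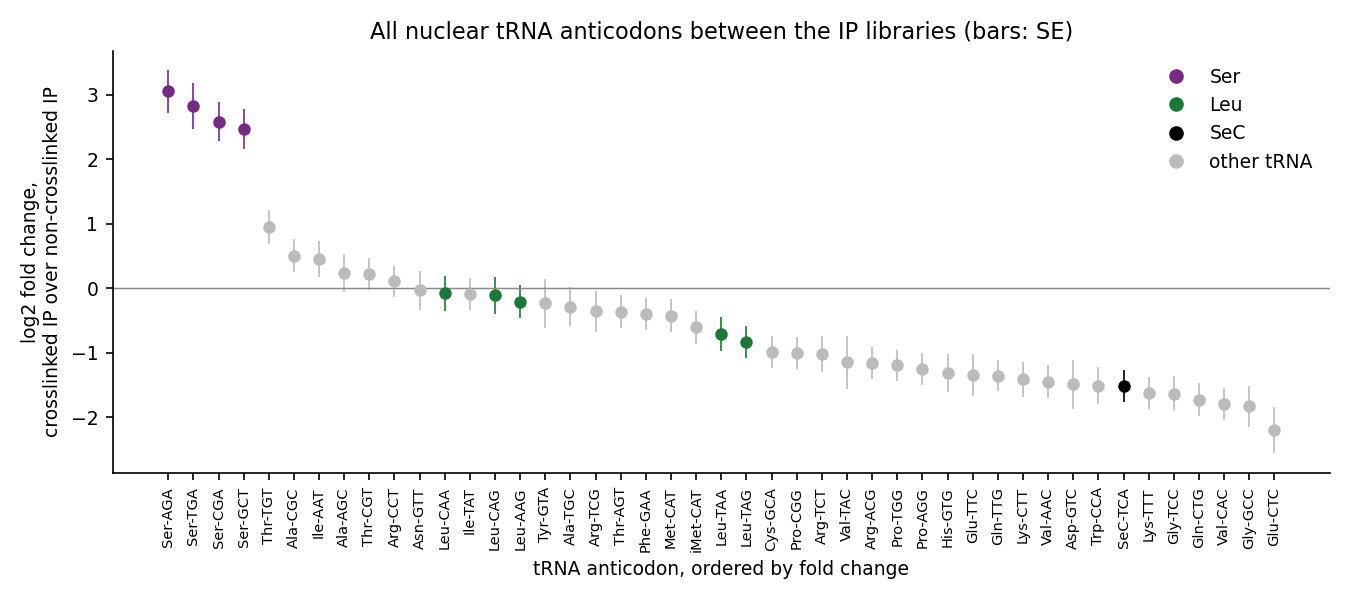
Log2 fold change of crosslinked IP over non-crosslinked IP (vertical axis, bars SE) for the 45 nuclear tRNA anticodons in descending order; purple Ser, green Leu, black SeC, grey other tRNA. The 4 Ser anticodons, at 2.47 to 3.05, stand apart from the next value of 0.95, and the Leu anticodons lie between -0.08 and -0.83.

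For Leu tRNA the direction between the IP libraries depended on the scaling. Leu-CAA (-0.08, 95% interval -0.60 to 0.45), Leu-CAG (-0.11, -0.67 to 0.45) and Leu-AAG (-0.21, -0.70 to 0.29) were not called. Leu-TAA had -0.71 (SE 0.26, adjusted p = 0.0543) and Leu-TAG, the one Leu anticodon called lower, had -0.83 (SE 0.24, adjusted p = 0.00812 in edgeR's quasi-likelihood test), where 8.29% of entries were called lower. The call of Leu-TAG was lost without either crosslinked input (adjusted p = 0.101 without the first and 0.173 without the second). With the other tRNA as library size all 5 Leu values turned positive, 0.78 to 1.52, and none was called, while 29.7% of entries were called higher and the median of all entries shifted to 1.63.

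Summed by amino acid, a summary added after seeing the data, Ser tRNA was 7.08-fold higher in crosslinked than in non-crosslinked IP (log2 2.82, SE 0.37, adjusted p = 7.46e-12), where 5.11% of entries were called higher. Leu tRNA had a log2 fold change of -0.18 (SE 0.31, 95% interval -0.79 to 0.42). A change of Leu tRNA as large as that of Ser tRNA lies outside that interval.

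**Figure D4:**
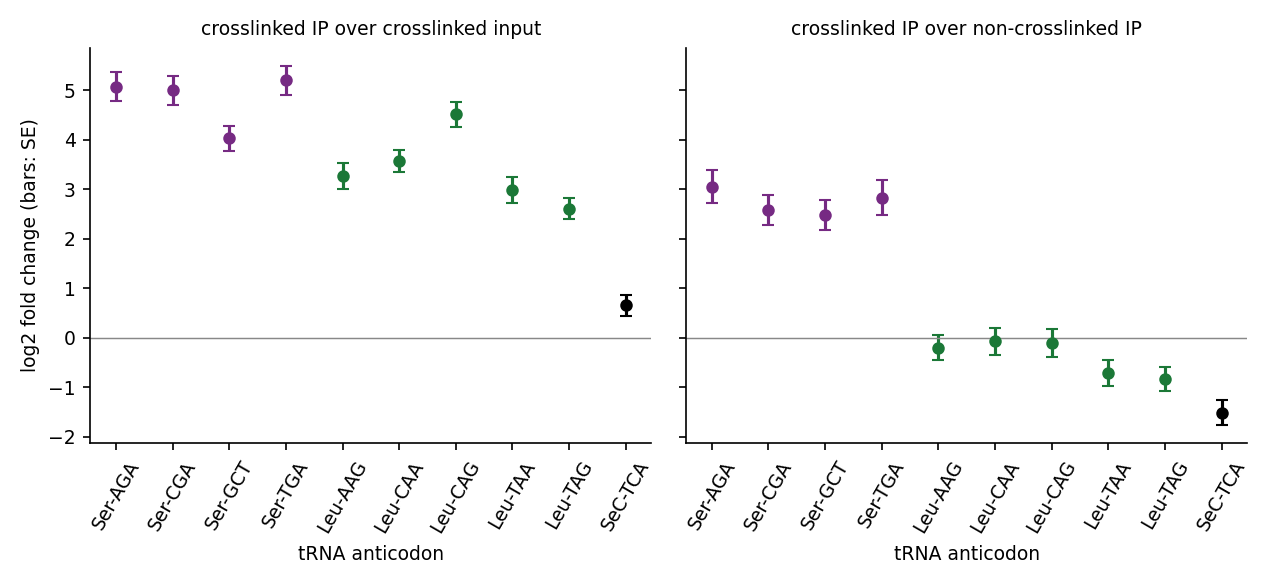
Log2 fold changes with their SE for the Ser (purple), Leu (green) and SeC (black) anticodons, crosslinked IP over crosslinked input on the left and over non-crosslinked IP on the right. All values on the left are above 0, with Leu-CAG at 4.51 above Ser-GCT at 4.03, while on the right the Ser anticodons lie at 2.47 to 3.05 and every Leu anticodon and SeC-TCA below 0.

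The inputs also differed between crosslinked and non-crosslinked cells, and the IP libraries are read against them. Such shifts were not particular to Ser and Leu tRNA. Over the 45 nuclear tRNA anticodons the log2 fold changes ran from 3.50 for iMet-CAT, with 2 reads in non-crosslinked input, to -2.78 for Ile-AAT. Asp-GTC had -1.99. In that order Ser-AGA held rank 2 and Leu-AAG rank 42. Ser-AGA was 4.26-fold higher in crosslinked input than in non-crosslinked input (log2 2.09, SE 0.42, adjusted p = 2.52e-05), where 6.05% of entries were called higher. The other Ser anticodons had 0.93 (Ser-CGA), 0.68 (Ser-TGA) and 0.42 (Ser-GCT), and none of these was called. Leu-AAG was lower in crosslinked input, at a log2 fold change of -1.90 (SE 0.27, adjusted p = 1.35e-10), and so was Leu-TAG, at -0.95 (SE 0.29, adjusted p = 0.0127), where 7.2% of entries were called lower. Leaving out crosslinked input 2 removed all 3 calls, with adjusted p of 0.125 for Ser-AGA, 0.137 for Leu-AAG and 0.422 for Leu-TAG in edgeR's quasi-likelihood test, and log2 fold changes of 2.00, -1.72 and -0.72. With the other tRNA as library size all 4 Ser anticodons were higher in crosslinked input (log2 2.07 to 3.76), where 53.0% of entries were, and Leu-TAG turned to 0.71.

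The interaction asks whether the ratio of IP to input was larger with crosslinking than without. It was for Ser-TGA (log2 2.14, SE 0.47, adjusted p = 0.000312), Ser-GCT (2.05, SE 0.47, adjusted p = 0.000724), Ser-CGA (1.65, SE 0.56, adjusted p = 0.0475) and Leu-AAG (1.69, SE 0.38, adjusted p = 0.000378). These were 4 of the 9 anticodons, where 4.42% of entries were called higher, beside 2 higher and 6 lower among the other 36 tRNA anticodons. Ser-AGA, the anticodon whose input was also higher with crosslinking, had 0.96 (SE 0.55, adjusted p = 0.381) and was not called. Leu-AAG had the highest non-crosslinked input of the 9 anticodons, and its crosslinked IP libraries, at 136 and 77.4 CPM, lay on both sides of the 134 CPM of the non-crosslinked IP. In ratios of CPM, Ser-TGA was 58.6 and 80.3 times its input in the crosslinked pairs and 18.6 times in the non-crosslinked pair, and Ser-GCT 35.2 and 25.2 times against 8.65 times. Ser-AGA was 93.9 and 40.6 times its input against 39.2 times. The library numbers were not taken as pairs in the fits, so matching IP to input by number in these ratios is arbitrary. From mean CPM of the groups, the log2 ratio of IP to input for Ser-AGA was 5.95 with crosslinking and 5.29 without.

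The call of Ser-CGA lay close to the threshold and held in 2 of the 15 alternatives tried, against 12 for Ser-TGA, 11 for Ser-GCT and 10 for Leu-AAG. All 4 calls of the interaction were lost without crosslinked input 2, where the adjusted p in edgeR's quasi-likelihood test was 0.182 for Ser-TGA, 0.24 for Ser-GCT, 0.371 for Ser-CGA and 0.293 for Leu-AAG, and the log2 values were 1.60 to 1.91. With the other tRNA as library size none was called either, at log2 values of 1.49 to 2.14. Over all 15 alternatives the value of Ser-TGA was at least 1.53 and that of Ser-GCT at least 1.43. Summed by amino acid, the interaction was 1.91 (SE 0.48, adjusted p = 0.00231) for Ser, where 4.41% of entries were called higher, and 0.61 (SE 0.45, 95% interval -0.26 to 1.48) for Leu.

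SeC-TCA, the other nuclear tRNA with a long variable arm, did not move with Ser tRNA. It had 89 and 155 reads in crosslinked IP, 215 and 202 in crosslinked input, 299 in non-crosslinked IP and 159 in non-crosslinked input. Its fold change of crosslinked IP over crosslinked input was a log2 of 0.65 (SE 0.21), the lowest of the 45 tRNA anticodons. Crosslinked IP over non-crosslinked IP was -1.51 (SE 0.25, adjusted p = 8.35e-08), and the interaction was -1.73 (SE 0.37, adjusted p = 0.000152), where 2.84% of entries were called lower. SeC tRNA was therefore below the Ser anticodons in all of these, although the same synthetase charges both. Its direction between the IP libraries turned to 0.12 (adjusted p = 0.891) with the other tRNA as library size.

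The mitochondrial tRNAs of the same amino acids are separate genes of the mitochondrial genome with few reads here. Of these, mitochondrial Leu-TAG was not tested. Its reads numbered 0 and 8 in crosslinked IP, 1 in each crosslinked input, 1 in non-crosslinked IP and 0 in non-crosslinked input. Mitochondrial Ser-GCT had 46 and 69 reads in crosslinked IP, 116 and 122 in crosslinked input, 6 in non-crosslinked IP and 22 in non-crosslinked input. It was higher in crosslinked than in non-crosslinked IP (log2 3.04, SE 0.48) and in crosslinked than in non-crosslinked input (2.24, SE 0.32), with an interaction of 0.80 (adjusted p = 0.624) that was not called. Mitochondrial Leu-TAA, with 24 and 17 reads in crosslinked IP, 13 and 14 in crosslinked input and 2 in each non-crosslinked library, was likewise higher in the crosslinked libraries. Mitochondrial Ser-TGA, with 11 reads in each crosslinked IP, 6 and 7 in crosslinked input and 6 in each non-crosslinked library, was called higher over input (2.20, SE 0.49) but not over non-crosslinked IP (0.67, SE 0.72).

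Within the nuclear anticodons, gene copies carried the reads unequally. The largest contrast was Ser-TGA, whose 2 genes lie 480 bases apart on arm 2R of the RefSeq Release 6 assembly. Ser-TGA-1-1 had 1776 and 2766.5 reads in crosslinked IP, 164.5 and 159 in crosslinked input, 274 in non-crosslinked IP and 89 in non-crosslinked input. Ser-TGA-2-1 had 9 and 8.5, 6.5 and 2.5, 2, and 3 reads in the same order of libraries. The reads of this anticodon were nearly all assigned to 1 copy in every library, and that copy alone held more reads in the crosslinked IP libraries than any other Ser or Leu anticodon did as a sum. Ser-TGA made up 31.6% and 40.8% of all Ser and Leu reads in crosslinked IP, 24.8% and 18.7% in crosslinked input, 10.7% in non-crosslinked IP and 11.4% in non-crosslinked input.

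The 8 Ser-AGA genes fell into levels by isodecoder, the number in the gene name that marks a distinct tRNA body. The 5 copies of AGA-2 had 160 to 163 reads in crosslinked IP 1, and the other copies, of AGA-1 and AGA-3, 122 to 125. Ser-AGA-2-5 (3L:5342084-5342165, 82 bases) was the highest of them. The 4 Ser-CGA copies, at 116 to 123 reads, were nearly level with AGA-1 and AGA-3. Of the Ser-CGA copies 3 lie on X close to those genes: Ser-CGA-1-2 at X:14015445-14015526, Ser-AGA-1-1 at X:14070641-14070722 and Ser-AGA-3-2 at X:14104649-14104730. Level did not go with place. Ser-AGA-2-1 and Ser-AGA-2-2, in the same region of X, had 163 and 160 reads, and Ser-CGA-1-4, on 2R, had 116. Values are split between copies in fractions, so levels of single copies of 1 isodecoder, and the division between Ser-AGA and Ser-CGA, are uncertain. The 6 Ser-GCT copies lie on 3R, 4 of them in a cluster that holds Ser-GCT-2-4 (3R:22396799-22396880) and Ser-GCT-1-1 (3R:22397180-22397261), and had 51.1 to 62.5 reads in crosslinked IP 1 and 6.08 each in non-crosslinked input.

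Leu copies differed in how far they were spread. The 8 Leu-CAG copies, 6 of them in a cluster on 3L that includes Leu-CAG-1-7 (3L:8068208-8068290), had 107 to 109 reads each in crosslinked IP 1, within 1.02-fold of one another. Leu-TAG-1-1 (3R:30247964-30248043) had 82.7 and 116 reads in crosslinked IP, 34.7 and 43.4 in crosslinked input, 161 in non-crosslinked IP and 77.2 in non-crosslinked input. Leu-TAG-1-2, 572 bases away, had 6.67 and 10.5, 11.7 and 7.89, 5 and 5.23 in that order, so that its read numbers in crosslinked IP and in the deeper crosslinked inputs were alike. Over input, Leu-TAG-1-1 had a log2 fold change of 2.89 (SE 0.19) and Leu-TAG-1-2 one of 1.30 (SE 0.44, adjusted p = 0.035 in edgeR's quasi-likelihood test). Both copies carry the same isodecoder number and values are split between copies in fractions, so their separate levels and fold changes are uncertain.

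The Leu-CAA genes, 121 to 127 bases long against 80 to 84 for the other Ser and Leu genes, contain an intron that is removed from the precursor. Leu-CAA-1-1, on 2R, had 183 and 228 reads in crosslinked IP, 57.9 and 82.5 in crosslinked input, 208 in non-crosslinked IP and 90.7 in non-crosslinked input. Leu-CAA-2-2 (3L:13214109-13214233), the highest of the CAA-2 isodecoder by mean CPM over the 6 libraries, a lead smaller than the differences between its copies within libraries, had 129 and 165, 21.4 and 28.7, 129 and 16.1 in that order. The ratio between them was closest to even in the IP libraries and widest in the non-crosslinked input. Reads that the tables list separately for a Leu-CAA intron numbered 2 in crosslinked IP 1 and 0 in the other libraries.

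The 4 Leu-TAA genes each have an isodecoder of their own. Leu-TAA-4-1 (3R:24265259-24265342) had 20.7 and 26.3 reads in crosslinked IP, 10.3 and 7 in crosslinked input, 33 in non-crosslinked IP and 5 in non-crosslinked input. Leu-TAA-1-1 (3R:20604749-20604832) had 9.17 and 19 reads in crosslinked IP but 1.83 and 1.5 in crosslinked input, both under 3 reads. With 3 reads set for each input, its mean CPM over both crosslinked IP libraries was at least 22.0-fold higher. This bound is for the mean, not for each library, and the fit with TMM scaling gave 18.8-fold. Leu-TAA-3-1 (2L:15132306-15132389), with 2 to 6 reads in every library, was not tested over input. As a sum, Leu-TAA had the lowest CPM of the 9 anticodons in each of the 4 crosslinked libraries.

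Among single copies, 41 of the 42 were tested over crosslinked input and 41 were called higher, where 29.6% of 13471 features were. Requiring at least 10 counts in every library leaves 22 copies higher. Between the IP libraries 19 of the 20 Ser copies were higher with crosslinking and 0 of the 22 Leu copies, where 3.52% of 20199 features were; at an unadjusted p under 0.05, 1 Leu copy was higher. The exception was Ser-TGA-2-1, with 2 reads in the non-crosslinked IP (adjusted p = 0.21 in edgeR's quasi-likelihood test). Leu-TAG-1-1 was the 1 Leu copy called lower (log2 -0.83, adjusted p = 0.041), where 6.47% of features were. Leu-AAG-1-1, with 21.2 and 15.7 reads in crosslinked IP against 8.08 in non-crosslinked IP, had 1.07 (SE 0.50, adjusted p = 0.19), while the other Leu-AAG copies, with 68.8 to 95.4 reads in crosslinked IP, had -0.25 to -0.15. Copies of 1 isodecoder share reads and are not independent.

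**Figure D5:**
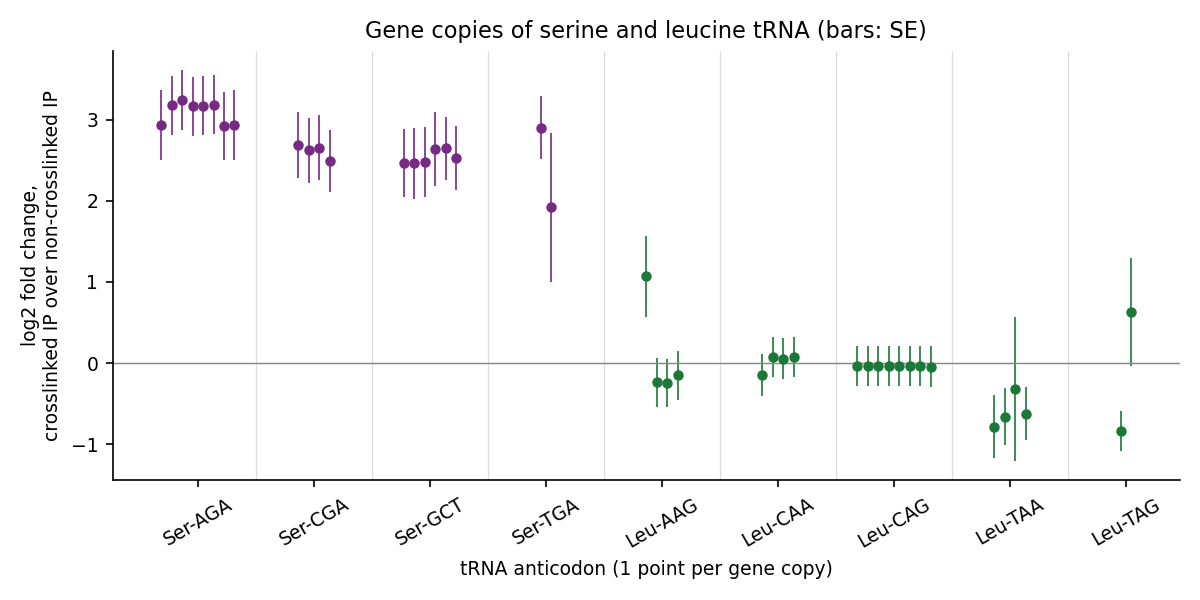
Log2 fold change of crosslinked IP over non-crosslinked IP for each of the 42 gene copies, with bars for the SE, grouped by anticodon (purple Ser, green Leu). The Ser copies lie at 1.92 to 3.24, the lowest being Ser-TGA-2-1, and the Leu copies at -0.83 to 1.07.

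The authors' deposited table gives a ratio per feature whose formula is not given in the sources used here. It lists 41 of the 42 copies among 213 tRNA copies. In the authors' deposited table the median ratio was 99.5 for Ser copies, 29.9 for Leu copies, 26.7 for the other tRNA copies and 3.44 for all features listed. The highest member in the authors' deposited table was Ser-AGA-1-1, with 165 and rank 20 among tRNA copies, and Ser-TGA-1-1 had 123. At the median, Ser copies were above Leu copies in the authors' deposited table.

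Genes for charging and processing of tRNA were examined from a list of 16, of which 12 were found among the features. Of the 9 tested as exon entries in crosslinked IP over crosslinked input, 0 were higher and 4 lower (edgeR's quasi-likelihood test). At an unadjusted p under 0.05, 0 were higher as well. Of all entries, 31.3% were called higher and 27.8% lower. SerRS, the cytosolic seryl-tRNA synthetase, had a log2 fold change of -1.94 (SE 0.48, adjusted p = 0.0025) with 1 and 7.67 reads in crosslinked IP against 39.4 and 57 in crosslinked input. LeuRS, the leucyl-tRNA synthetase, had -1.28 (SE 0.38), the tRNA ligase RtcB -1.38 (SE 0.44), and the precursor-binding protein La -0.87 (SE 0.35). These calls depend on the scaling: with annotated library size alone 0 of the 9 were called lower, and with library size without ribosomal RNA 7 were. The shares of all entries called lower under those scalings are not given here, so these counts are not a result about the listed genes.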

How the data were processed

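Members and gene lists were chosen with earlier results of these data known. Groups and replicate numbers come from the sample titles. The authors deposited, per feature and library, estimated counts, with fractions where copies share reads, and RPM values, the same counts scaled to their total. The authors also deposited 1 table with a ratio per feature, without header or formula. Per the submitters' processing notes, STAR 2.5.2b, bedtools 2.29.0 and bcl2fastq 2.19 were used and the builds dm6 and mm10 are named without a role; duplicate removal, multiple mapping and strand are not given in the sources used here. Positions are those of RefSeq's Release 6 annotation, to which all 42 copies matched by name.

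Reads outside any annotation, 7.87% to 13.6% in IP and 2.15% to 3.23% in input, were left out. Copies were summed by anticodon, other features by gene or element, and counts were rounded. The fits used edgeR 4.0.16 in R 4.3.3, over the whole table: filterByExpr, TMM scaling, a quasi-likelihood F test and Benjamini-Hochberg adjusted p-values, called under 0.05. The 4 crosslinked libraries gave IP over input, and all 6 libraries in 4 groups gave the other contrasts. SEs were derived as log2 fold change over root F, and 95% intervals as 1.96 SE to each side. DESeq2 1.42.0 and limma 3.58.1 (on log2 of RPM plus 1) were alternatives. The fit was tested on simulated data. Named were every Ser and Leu anticodon, the highest copy of each isodecoder, the other tRNA anticodon with most IP reads, SeC and mitochondrial tRNA, and pathway genes past the threshold. Other copies, Thr-TGT, iMet-CAT and Ile-AAT were named after their values were seen. Same-numbered crosslinked libraries deviated together with a correlation of 0.0705 over 8978 entries, so the numbers were not taken as pairs. Counts of replicates differed beyond sampling noise (chi-square per degree of freedom 6.86 in IP and 12.2 in input).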

Additional observations from a re-analysis of the deposited data

Results flagged for a closer look

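The ratio of IP to input differed between crosslinked and non-crosslinked cells for 4 of the 9 anticodons, by the interaction test in edgeR. Of all entries, 4.42% were called higher in it, and each non-crosslinked group was a single library. The calls were lost with the other tRNA as library size, and that of Ser-CGA held in 2 of the 15 alternatives tried. The log2 values of crosslinked over non-crosslinked were 2.14 for Ser-TGA, 2.05 for Ser-GCT, 1.69 for Leu-AAG and 1.65 for Ser-CGA. For the 3 Ser anticodons the crosslinked IP libraries were above the non-crosslinked IP. For Leu-AAG the IP groups overlapped, with 136 and 77.4 CPM in crosslinked IP against 134 CPM in non-crosslinked IP, and its crosslinked inputs, at 5.72 and 6.18 CPM, were below the 20.2 CPM of the non-crosslinked input. Total tRNA moved with crosslinking as well: it was 2.26% and 1.40% of annotated reads in crosslinked IP, 0.191% and 0.179% in crosslinked input, 5.06% in non-crosslinked IP and 0.521% in non-crosslinked input. Its part in these values was not tested.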

How the results depend on the processing

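In crosslinked IP over crosslinked input, all 9 anticodons were called higher in every alternative but the tRNA-based library sizes; under the replicate block the 9 log2 fold changes were 2.61 to 5.21. With all or other tRNA reads as library size 6 were called. The next 2 library sizes were added after seeing the data. With tRNA outside Ser, Leu, Asp and Glu as library size 4 were higher and 1 lower, and Leu-AAG turned to -0.47, Leu-CAA to -0.12, Leu-TAA to -0.69 and Leu-TAG to -1.07. With Leu reads as library size 4 were higher and 3 lower, and the same anticodons had -0.52, -0.21, -0.79 and -1.17. Of the gene copies, 22 were higher when at least 10 counts were required in every library, since fewer copies were then tested, and 39 to 41 when 1 library was left out. The block changed no call.

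Between the IP libraries the 4 Ser calls held throughout. The number of Leu anticodons called lower was 2 with DESeq2 size factors and with at least 10 counts, and 0 with library size without ribosomal RNA, with each of the 4 tRNA-based library sizes, with 3 IP libraries only, with DESeq2's Wald test, with limma on RPM and with a required 2-fold change; it was 0 to 3 with 1 library left out. Leu values turned positive as follows, in the order Leu-AAG, Leu-CAA, Leu-CAG, Leu-TAA and Leu-TAG: 1.13, 1.33, 1.31, 0.71 and 0.59 with all tRNA as library size; 1.31, 1.52, 1.501, 0.90 and 0.78 with other tRNA; 0.71, 0.89, 0.87, 0.27 and 0.14 without Asp and Glu as well. Without ribosomal RNA the first 3 had 0.0096, 0.14 and 0.11; with 3 IP libraries Leu-CAA had 0.067 and Leu-CAG 0.035; with Leu reads they had 0.10 and 0.070. Leu-CAA had -0.34 to 0.0046 with 1 library left out, the positive value without crosslinked input 2.

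Between the inputs, the number higher was 6 with all tRNA, 5 with other tRNA and with Leu reads, 4 without Asp and Glu and 2 with 3 input libraries, and 0 to 1 with 1 library left out. The number lower was 1 with library size alone, without ribosomal RNA, with DESeq2's Wald test, limma, Leu reads or tRNA without Asp and Glu, 0 with all or other tRNA, and 0 to 2 with 1 library left out. Leu-TAG turned to 0.68 with all tRNA and 0.71 with other tRNA. With other tRNA 53.0% of all entries were called higher between the inputs, and their median log2 was 1.70. The 5 anticodons called higher there are therefore not particular to Ser and Leu tRNA. Shares of all entries under the other settings between the inputs are not given here. The interaction gave 0 calls with all or other tRNA, 1 with DESeq2's Wald test, 2 with limma, and 0 to 4 with 1 library left out.

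The ratio of Ser and Leu shares was 3.65 without Ser-TGA, 2.77 without Asp-GTC, 41.1 as a share of annotated reads, 18.8 without ribosomal RNA and 3.38 with medians over copies, and 3.51 to 5.16 with 1 library left out. With medians over copies Ser-TGA made up 60.1% of Ser and Leu reads in crosslinked IP, where an anticodon with few copies weighs more than in sums. The number of processing genes called lower was 0 with library size alone and 7 without ribosomal RNA, without the shares of all entries beside them. For all other changes the cause was not tested. Single non-crosslinked libraries, input counts under 3 reads and reads shared between copies limit single copies.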
